A study of Homo sapiens with 12 samples.

Results

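The genes described here are 9 genes of homologous recombination and of the Fanconi anaemia pathway, BRCA1, BRCA2, BARD1, RAD51AP1, FANCA, FANCD2, FANCI, BRIP1 and EXO1, taken by their symbols from the 23710 genes in the count files. All 9 were listed in every library and all 9 passed the filter on low counts with each siRNA. Their mRNA was measured by RNA-seq in RCC4, an established human clear cell renal carcinoma line, 72 hours after transfection with 40 pmol of siRNA. The study asked which mRNAs change when MESH1, an NADPH phosphatase, is silenced. In experiment 1, 3 libraries of siMESH1#1 (siMESH1-CDS, directed at the coding sequence of MESH1) were compared with 3 of siNT, a non-targeting siRNA. In experiment 2, 3 libraries of siMESH1#2 (directed at the 3'UTR) were compared with 3 further libraries of siNT. Transfection with Lipofectamine RNAiMAX was shared by all 4 groups. All libraries come from 1 cell line, each siRNA was used in only 1 experiment, and so siRNA and experiment cannot be told apart. Sample titles call the replicates biological and say nothing of separate cultures, so p-values measure the spread between these libraries.

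Homologous recombination repairs a broken chromosome by copying the intact sister, so it acts mainly in S and G2 phase, when a sister is at hand. DNA ends are first resected to single strands, and BRCA1 with its partner BARD1, and then BRCA2, help these strands to invade the sister duplex. The Fanconi anaemia pathway detects crosslinks between the strands: a core complex that includes FANCA ubiquitinates the pair FANCD2 and FANCI, which then recruits nucleases and recombination factors. BRIP1, also called FANCJ, and BRCA2, also called FANCD1, belong to both pathways. Many of these mRNAs are known to be made mostly in cycling cells.

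The 2 siRNA targets are printed to show where each siRNA pairs with MESH1 and whether its seed has a site in the 9 genes. Capitals mark the bases that pair with positions 2 to 8 of the guide strand, the seed.
siMESH1#1 target: gggaaucacugACAUUGUg
siMESH1#2 target: ctgaaggtctcctGCTAACTa
MESH1 is listed as HDDC3 and lies on the minus strand of chromosome 15. The siMESH1#1 target is 19 bases in exon 2 of 4, in the coding sequence (chr15:90932064-90932082, GRCh38, GENCODE 29). The siMESH1#2 target is 21 bases in exon 4, in the 3'UTR (chr15:90931109-90931129, same build). Neither full target occurs in any of the 9 genes, each taken as its transcript with the longest coding sequence. The 7-base site of the siMESH1#2 seed was found in none of their 3'UTRs, against 5.2% of the tested genes with a 3'UTR. The site of the siMESH1#1 seed was found in 1 of the 9 genes, against 14.7% of tested genes. That gene is BRIP1, with 2 sites, of which the first begins at base 1021 of a 3'UTR of 2030 bases.
BRIP1 3'UTR, first site: aggtaatttctACATTGTttagaaagggt

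Promoter windows from 250 bases before to 50 after an annotated start were available from RefSeq (GRCh38.p14) for 8 of the 9 genes, with 10 windows in all, and FANCI had none. They are shown because the 9 mRNAs moved together and because E2F factors are known to switch on many S phase genes. The 8-letter words TTTGGCGC, TTTCCCGC, TTTCGCGC and TTTGCCGC, searched on both strands, occurred in 3 of these 8 genes and in 6.5% of the 9725 tested genes with a window. Capitals mark the word or its reverse complement on the gene's own strand.
FANCA, minus strand, chr16:89816802-89816829: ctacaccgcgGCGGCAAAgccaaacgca
FANCD2, plus strand, chr3:10026425-10026452: gtcgggcctgGCGGGAAAgtcgaaaact
EXO1, plus strand, chr1:241848198-241848225: aaggtcagccTTTCGCGCgctgtgtagg
The last 6 letters of these words (TGGCGC for the first, TCCCGC for the second, TCGCGC for the third, TGCCGC for the last), which every 8-letter match also holds, occurred in 8 of the 8 genes but also in 77.3% of tested genes.
TTTGAA or TTCGAA occurred in 1 gene, BRIP1, against 15.4% of tested genes, and CCAAT in 4 of 8, against 43.1%. A match is a description of letters and says nothing of binding.

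The number of reads in genes ranged from 34063155 to 49134129 in the first experiment and from 24787804 to 31651125 in the second. By library size alone, a level of 1 CPM stands for about 25 to 49 reads. CPM given here are counts scaled by library size with TMM factors, which shift that number in each library. Of 8 renal carcinoma markers, 6 reached 1 CPM in every library (NDUFA4L2 and KRT18 were as low as 0.0780 and 0.286 CPM in some), and 7 of 8 markers of other cell types stayed under 1 CPM, 3 of them at 0, while the smooth muscle actin gene ACTA2 lay between 5.98 and 74.0 CPM. The summed markers of other cell types were 9.07 to 10.3 CPM with siNT and 6.03 to 28.8 with siMESH1#1, and 34.9 to 39.9 with siNT and 69 to 74.0 with siMESH1#2, nearly all ACTA2, and their part in the results was not tested. HDDC3 fell with siMESH1#1 (log2 fold change -5.56, SE 0.823, edgeR adjusted p = 0.00174) and with siMESH1#2 (-3.25, SE 0.129, edgeR adjusted p = 2.51e-12). Libraries of siMESH1#1 differed more from each other than those of the other groups, with a chi-square per degree of freedom of 68.9 to 291 against 2.29 to 15.8. The change with siMESH1#1 also followed the GC content of the transcripts: its median ran from 1.12 in the lowest of 10 GC classes to -3.66 in the highest, and from 0.14 to -0.09 with siMESH1#2. Changes with siMESH1#1 are therefore also given with a GC correction, for the 9 genes and for some of the others. With it HDDC3 changed by -4.37 with siMESH1#1, or -3.86 less the median of all genes, and by -3.19 with siMESH1#2.

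All 9 genes fell with both siRNAs. With siMESH1#1, 9 of 9 were called lower (edgeR quasi-likelihood test, adjusted p between 0.000214 and 0.00826), where 37.2% of 13395 tested genes were called lower and 36.9% higher. With siMESH1#2, 9 of 9 were called lower (edgeR adjusted p between 1.37e-11 and 5.24e-05), where 26.7% of 13568 genes were called lower and 26.6% higher. The 9 genes were among the 15.1% of the 12824 genes tested with both siRNAs that were called lower with each. In each experiment every siMESH1 library lay below every siNT library for all 9 genes, which held for 42.5% of genes with siMESH1#1 and 29.9% with siMESH1#2. The exact permutation p was 0.1 for each gene and siRNA, two-sided, and 0.1 is the smallest that 3 libraries against 3 allow.

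**Figure D1:**
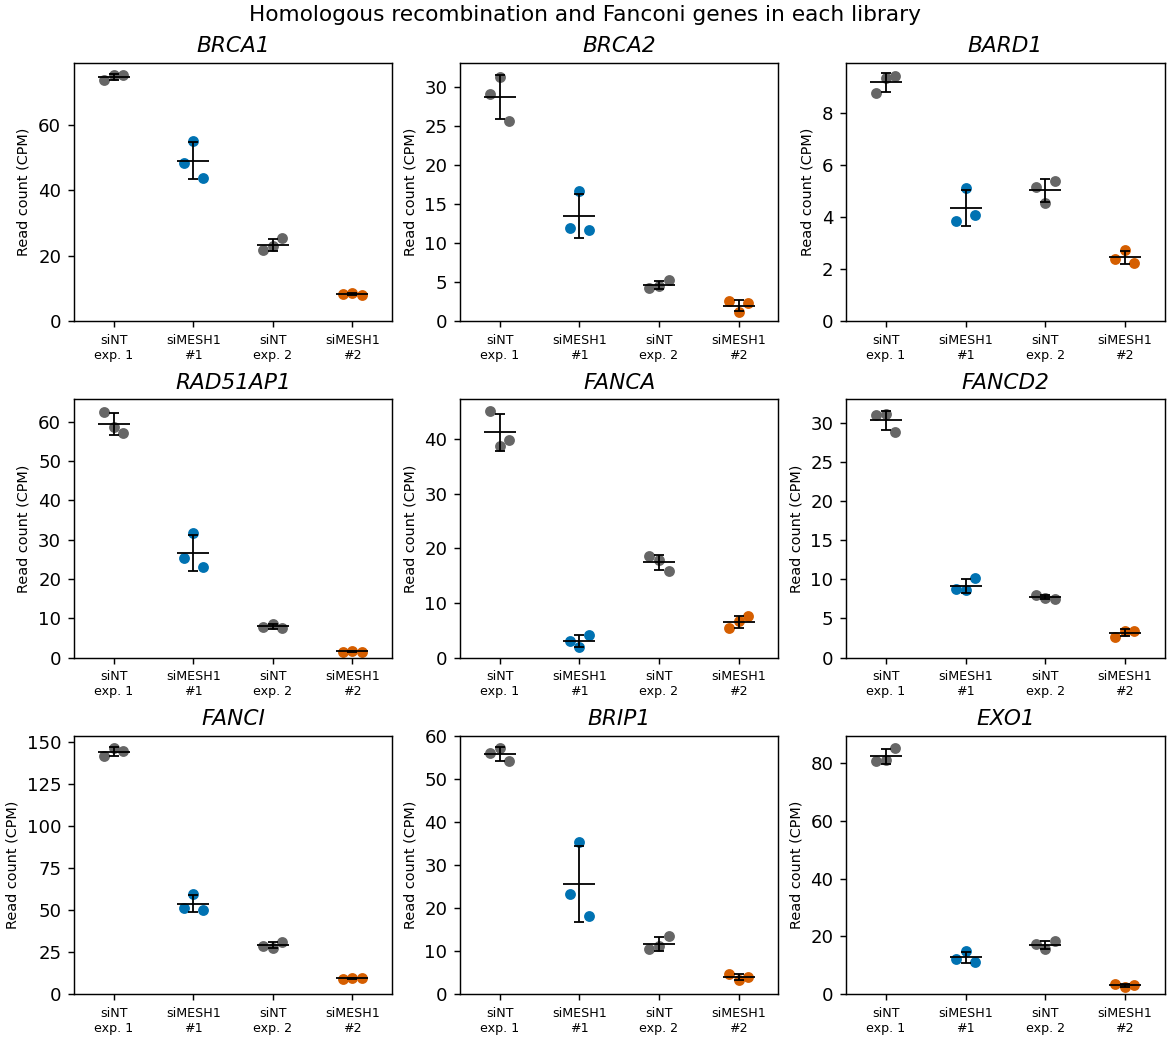
Normalised read count (CPM, linear axis from 0) of each of the 9 genes in each of the 12 libraries, as points, with the mean and SD of each group of 3 as black bars. The siMESH1 points lie below the siNT points of their own experiment in all 9 panels, and the siNT level of each gene is lower in experiment 2 than in experiment 1.

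The median log2 fold change of the 9 genes was -1.16 with siMESH1#1 and -1.47 with siMESH1#2, and the medians of all tested genes were -0.05 and 0.01. With siMESH1#1 the mean CPM left was 7.22% to 65.7% of siNT, with a median of 44.8%. With siMESH1#2 it was 17.4% to 48.9%, with a median of 36.1%. The most reduced gene was FANCA with siMESH1#1 and EXO1 with siMESH1#2, and the least reduced were BRCA1 and BARD1, respectively. In a fit of all 12 libraries, the average change was called lower for 9 of 9, against 43.7% of 14154 genes. In bulk RNA, fewer cycling cells and less mRNA per cell cannot be told apart.

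BRCA1 (chromosome 17, 43044295 to 43170245, minus strand) encodes the ubiquitin ligase that steers broken ends to recombination. It was measured at 73.7, 75.2 and 75.1 CPM with siNT and 48.2, 55.1 and 43.8 CPM with siMESH1#1. In experiment 2 it had 21.8, 22.9 and 25.3 CPM with siNT and 8.43, 8.75 and 8.09 CPM with siMESH1#2. Replicates were tight beside the gap between groups, and the siMESH1#1 libraries kept a larger share of the siNT level (65.7%) than the siMESH1#2 libraries (36.1%). BRCA1 fell by 0.61 on the log2 scale with siMESH1#1 (SE 0.114, edgeR adjusted p = 0.00414) and by 1.47 with siMESH1#2 (SE 0.0816, edgeR adjusted p = 1.83e-10). The noncoding gene NBR2 overlaps BRCA1 on the other strand.

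BARD1 (chromosome 2, 214725646 to 214809711, minus strand), the partner that BRCA1 needs for stability and ligase activity, was the least abundant of the 9 per length in experiment 1. It had 9.16 ± 0.372 CPM in siNT libraries against 4.34 ± 0.686 in those of siMESH1#1 (SD, n = 3), and 5.02 ± 0.437 and 2.46 ± 0.252 CPM in experiment 2. Its log2 fold change was -1.08 (SE 0.189) with siMESH1#1 and -1.03 (SE 0.132) with siMESH1#2. With the GC correction it was -2.58 with siMESH1#1, or -2.07 less the median of all genes. The difference of BARD1 between siRNAs was then 1.74 and called (edgeR adjusted p = 2.54e-04), beside an all-gene median of 0.74. With that correction the difference was called for 8 of the 9 genes. BRIP1 (chromosome 17, 61681266 to 61863521, minus strand), the helicase that binds BRCA1, had 55.9, 57.2 and 54.1 CPM with siNT and 23.2, 35.4 and 18.1 CPM with siMESH1#1. Its siMESH1#1 libraries had the largest SD in CPM of the 9 genes (8.88), yet the highest stayed below the lowest siNT library. The log2 fold change of BRIP1 was -1.12 (SE 0.253, edgeR adjusted p = 0.00826). With siMESH1#2, whose seed has no site in BRIP1, it was -1.58 (SE 0.130, edgeR adjusted p = 2.91e-08), from 11.7 ± 1.65 to 3.89 ± 0.667 CPM.

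BRCA2 (chromosome 13, 32315474 to 32400266, plus strand), which acts on resected single-stranded DNA, rested on few reads in experiment 2. It had 1194 to 1547 reads per library with siNT and 378 to 640 with siMESH1#1, and 112 to 148 with siNT and 34 to 73 with siMESH1#2. In CPM it was 29.1, 31.3 and 25.6 against 11.95, 16.6 and 11.7 in experiment 1. In experiment 2 it was 4.29, 4.50 and 5.25 against 2.53, 1.15 and 2.28. The groups stayed apart in both experiments. BRCA2 changed by -1.10 (SE 0.195, edgeR adjusted p = 0.00341) and -1.24 (SE 0.196, edgeR adjusted p = 5.24e-05) on the log2 scale.

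RAD51AP1 (chromosome 12, 4538798 to 4560048, plus strand) encodes a DNA-binding protein that helps strands to pair. Its counts were 62.6, 58.6 and 57.2 CPM with siNT and 25.3, 31.8 and 22.9 CPM with siMESH1#1. In experiment 2 they were 7.69, 8.60 and 7.52 CPM with siNT and 1.46, 1.79 and 1.42 CPM with siMESH1#2. The groups did not overlap, and the fall was smaller with siMESH1#1, with log2 fold changes of -1.16 (SE 0.152, edgeR adjusted p = 0.00117) and -2.35 (SE 0.132, edgeR adjusted p = 2.19e-10). GENCODE 29 also lists a pseudogene, RAD51AP1P1, that could take some of its reads.

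FANCA (chromosome 16, 89737549 to 89816657, minus strand), a subunit of the Fanconi core ligase, fell most with siMESH1#1. It had 45.1, 38.8 and 39.9 CPM with siNT and 2.97, 1.85 and 4.11 CPM with siMESH1#1. Its counts in experiment 2 were 18.5, 17.9 and 15.9 CPM with siNT and 5.44, 6.66 and 7.63 CPM with siMESH1#2. The siMESH1#1 libraries thus kept a smaller part of the siNT level than the siMESH1#2 libraries did. The log2 fold changes were -3.79 (SE 0.325, edgeR adjusted p = 3.80e-04) and -1.41 (SE 0.106, edgeR adjusted p = 1.01e-08). FANCA has the transcript richest in GC of the 9, at 55.4%, and ZNF276 overlaps it on the other strand.

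FANCD2 (chromosome 3, 10026414 to 10101930, plus strand) and FANCI (chromosome 15, 89243949 to 89317261, plus strand) encode the pair that the core ligase modifies. FANCD2 had 30.9, 31.1 and 28.9 CPM with siNT and 8.73, 8.58 and 10.2 CPM with siMESH1#1. In experiment 2 it had 7.98, 7.64 and 7.49 CPM with siNT and 2.63, 3.44 and 3.40 CPM with siMESH1#2. Both groups were tight and wide apart in experiment 1. The log2 fold change of FANCD2 was -1.72 (SE 0.144, edgeR adjusted p = 3.63e-04) and -1.28 (SE 0.118, edgeR adjusted p = 1.12e-07). FANCI was the most abundant of the 9, with 141.7, 147 and 145 CPM with siNT against 51.2, 59.5 and 50.2 with siMESH1#1, and 28.8, 27.3 and 30.7 against 9.02, 9.29 and 9.47 with siMESH1#2. Its 3 siMESH1#2 libraries lay within 1 CPM of each other and far below the siNT libraries. FANCI changed by -1.43 (SE 0.0995, edgeR adjusted p = 2.75e-04) and -1.65 (SE 0.0745, edgeR adjusted p = 1.37e-11). The pseudogene FANCD2P2 resembles FANCD2, and on the other strand POLG overlaps FANCI and FANCD2OS overlaps FANCD2.

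EXO1 (chromosome 1, 241847967 to 241895148, plus strand) encodes the exonuclease that resects DNA ends over long stretches. It had 80.9, 81.2 and 85.4 CPM with siNT and 11.99, 14.9 and 11.1 CPM with siMESH1#1. With siNT and siMESH1#2 in experiment 2 it had 17.2, 15.6 and 18.5 and then 3.57, 2.30 and 3.04 CPM. EXO1 kept 15.4% of its siNT level with siMESH1#1 and 17.4% with siMESH1#2. Its log2 fold change was -2.70 (SE 0.148, edgeR adjusted p = 2.14e-04) and -2.53 (SE 0.122, edgeR adjusted p = 3.24e-11).

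Levels of different genes were compared as CPM per kilobase of that same transcript, with siNT. In experiment 1 the order was FANCI (30.4 ± 0.529), RAD51AP1 (27.5 ± 1.29), EXO1 (23.8 ± 0.731), BRCA1 (10.3 ± 0.116), BRIP1 (9.21 ± 0.261), FANCA (7.57 ± 0.619), FANCD2 (5.80 ± 0.237), BRCA2 (2.39 ± 0.237) and BARD1 (1.67 ± 0.0675), and each gap between neighbours was wider than the sum of their SDs. In experiment 2 FANCI led again with 6.11 ± 0.358, ahead of EXO1 (4.93 ± 0.406) and RAD51AP1 (3.67 ± 0.268), and BRCA2 was last with 0.390 ± 0.0422. BRCA1 (3.21 ± 0.248) and FANCA (3.20 ± 0.254) differed by less than their spread there, and so did RAD51AP1 and BRCA1. With siMESH1#2 the highest levels were those of FANCI (1.95), FANCA (1.21) and BRCA1 (1.16 CPM per kilobase). The 9 genes were lower with siNT of experiment 2 than with siNT of experiment 1, a difference between experiments that was not tested.

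**Figure D2:**
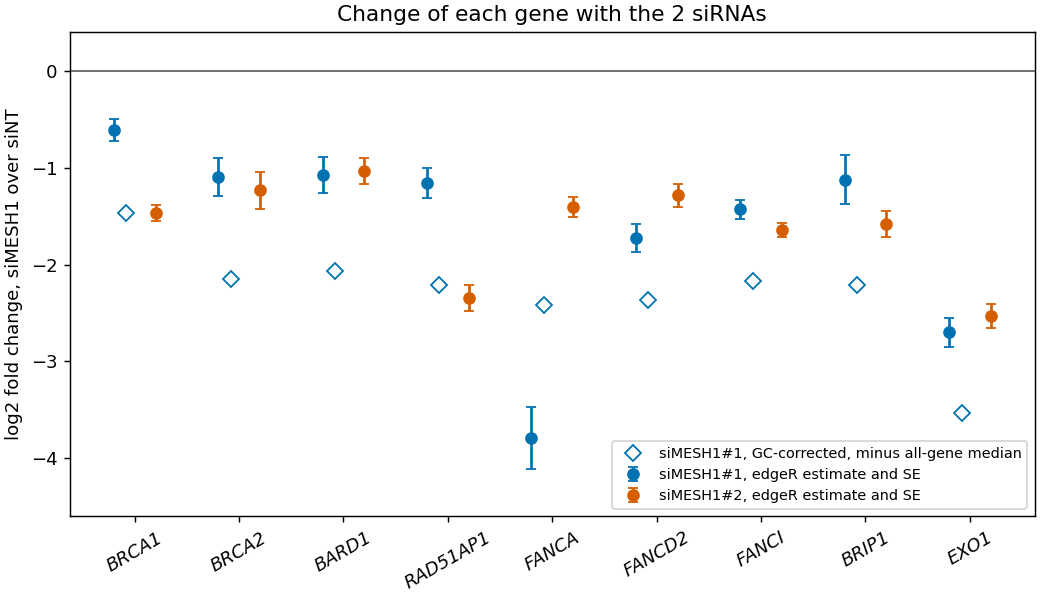
Log2 fold change of each gene, siMESH1 over siNT, with the SE from the edgeR fit, for siMESH1#1 (blue) and siMESH1#2 (orange), and the GC-corrected siMESH1#1 change less the median of all genes (open diamonds, no error shown). All points lie below 0, FANCA lies at -3.79 before and -2.42 after the correction, and EXO1 is the lowest of the diamonds at -3.54.

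GC content separated FANCA from the rest. The other 8 transcripts had between 36.0% and 44.0% GC, in classes where the median gene rose with siMESH1#1. After the GC correction 9 of 9 genes were still called lower with siMESH1#1 (45.1% of all genes, with 6039 of 7988 calls lower in place of 4981 of 9926). The corrected changes ran from -4.05 to -1.98 with a median of -2.72, beside an all-gene median of -0.51. Less that median, FANCA was at -2.42, close to FANCD2 at -2.36, RAD51AP1 at -2.22, BRIP1 at -2.21, FANCI at -2.17, BRCA2 at -2.15 and BARD1 at -2.07, while BRCA1 at -1.47 and EXO1 at -3.54 stood on either side. With siMESH1#2 the correction moved little, and the corrected changes ran from -2.59 to -1.13. Within lanes 4 and 6, each of which held 1 siNT and 1 siMESH1#1 library, the 9 differences were also all negative, from -3.45 to -0.75 and from -3.74 to -0.64 on the log2 scale. Experiment 2 was sequenced on 1 lane.

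**Figure D3:**
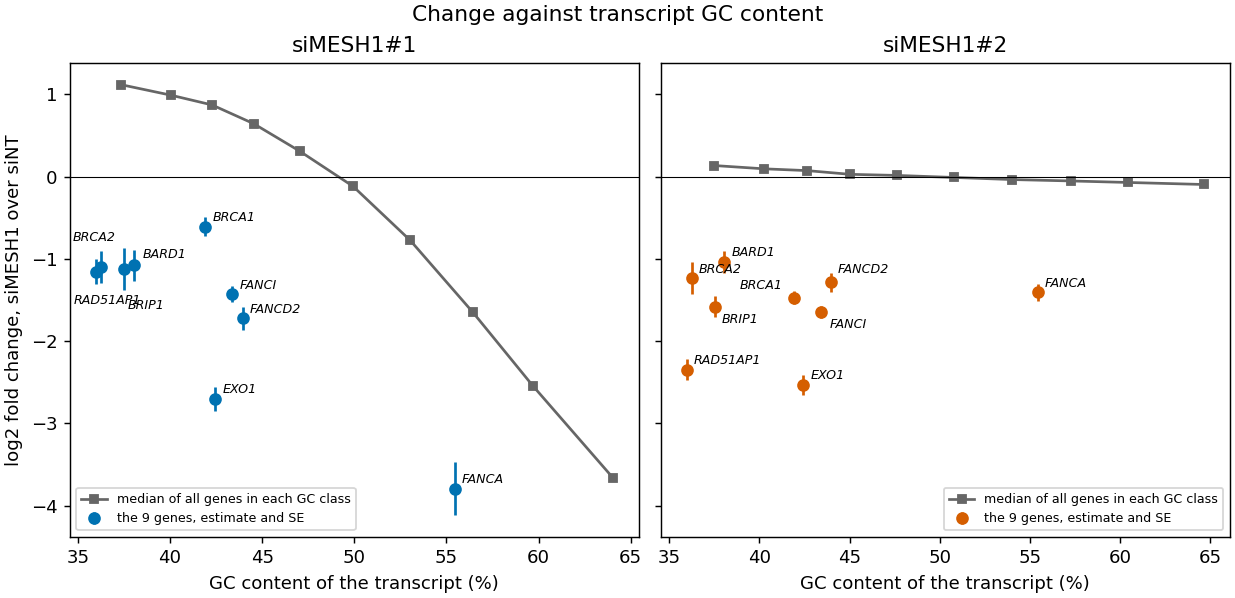
Log2 fold change against the GC content of the transcript (%) for siMESH1#1 (left) and siMESH1#2 (right), with the medians of all genes in 10 GC classes as grey squares and the 9 genes with their SE as coloured points. The grey line runs from 1.12 to -3.66 on the left and from 0.14 to -0.09 on the right, and all 9 genes lie below it in both panels.

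The difference between the 2 changes, siMESH1#2 minus siMESH1#1, was tested in 1 fit of all libraries. It was called for 4 of the 9 genes, against 69.7% of 14154 genes. Calls test the difference against 0, while its median over all genes was 0.24. BRCA1 (-0.71, SE 0.139, edgeR adjusted p = 0.00112) and RAD51AP1 (-1.04, SE 0.192, edgeR adjusted p = 8.37e-04) fell more with siMESH1#2. FANCA (2.54, SE 0.332, edgeR adjusted p = 9.44e-05) and FANCD2 (0.59, SE 0.166, edgeR adjusted p = 0.00921) fell more with siMESH1#1. The differences of BRCA2 (0.01, SE 0.394), BARD1 (0.19, SE 0.187), FANCI (-0.07, SE 0.117), BRIP1 (-0.31, SE 0.314) and EXO1 (0.32, SE 0.222) were not called, which does not show that the 2 siRNAs act alike on them. With the GC correction 8 of 9 were called and all 9 differences were positive, as was the all-gene median of 0.74, with 1520 of 9117 calls below 0 in place of 4240 of 9866. BRCA1 moved from -0.71 to 0.71 and RAD51AP1 from -1.04 to 0.54, both still under that median. The median of all genes moved less, from 0.24 to 0.74, so that shift is only a part of their change of sign. With a spread estimated for each group (voom), FANCD2 was not called (adjusted p = 0.0904, limma).

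Ratios of partners were compared within libraries on the log2 scale, in 8 comparisons of which 6 are given. BARD1 to BRCA1 was at -3.08, -3.01 and -2.996 with siNT and -3.65, -3.42 and -3.42 with siMESH1#1, but -2.08, -2.33 and -2.23 with siNT and -1.81, -1.67 and -1.84 with siMESH1#2. The ratio was lower by 0.47 with siMESH1#1, a difference of -0.47, and higher by 0.44 with siMESH1#2, with no overlap in either experiment. FANCI to FANCD2 differed by 0.29 with siMESH1#1, where the groups overlapped, and by -0.35 with siMESH1#2, where they did not. BRIP1 to BRCA1 differed by -0.57 and -0.12, with overlap in experiment 2. The exact permutation p was 0.1 at its smallest for 3 libraries against 3, or 0.16 adjusted over the 8 comparisons, so none could pass 0.05.

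The other genes of these pathways were called in both directions. Of 44 tested genes in a list of other homologous recombination genes, 20 fell, 14 rose and 10 were not called in experiment 1, with a median of -0.43. In experiment 2, 19 of 45 fell, 2 rose and 24 were not called, with a median of -0.17. Of all tested genes, 37.2% and 26.7% were lower, and 36.9% and 26.6% were higher. Neither count of recombination genes that rose stood above those shares. GC correction changed the siMESH1#1 split to 28 lower, where 45.1% of all genes were lower, with 2 in the other direction. Because that correction put the median of all genes at -0.51, corrected values of single pathway genes are given less that median, while calls test the change against 0. Lower with both siRNAs were 13 of the 44, against 15.1% of all genes, among them the translocase RAD54L (-4.65 and -2.42). XRCC2, a recombination mediator, changed by -2.08 and -2.01, and the helicase BLM, which dissolves crossed strands, by -1.38 and -2.64.

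PALB2 and RBBP8, which act beside BRCA1 and BRCA2, were not called lower before GC correction. PALB2, which bridges BRCA1 and BRCA2, was higher with siMESH1#1 (0.79, edgeR adjusted p = 0.00249) and at -0.15 with siMESH1#2 (edgeR adjusted p = 0.0914). RBBP8, the CtIP protein that starts resection, was higher with siMESH1#1 (0.55, edgeR adjusted p = 0.0212) and at 0.02 with siMESH1#2. With the GC correction the siMESH1#1 change less the all-gene median was -0.02 for PALB2 and -0.46 for RBBP8. Against 0, both were then called lower (edgeR adjusted p = 0.0272 and 0.00226). PALB2 was also called lower with siMESH1#2 after GC correction (-0.22 less the all-gene median, edgeR adjusted p = 0.00529). The uncorrected higher call of RBBP8 was lost in 4 of 6 fits that left out 1 library, namely siMESH1 replicate 1 and each siNT replicate. HELQ, a repair helicase, was the only gene of the list higher with both siRNAs (1.49 and 0.25), but lost its siMESH1#2 call in 5 of 6 such fits, all but that without siNT replicate 3, and was at 0.51 with siMESH1#1 after GC correction, where it was not called. UIMC1 (0.27 and -0.15) and RECQL5 (-1.76 and 0.15) were called in opposite directions. UIMC1 lost its calls in 5 and 3 of 6 fits without 1 library and RECQL5 in 4 and 5, and neither siMESH1#1 change was called after GC correction, where UIMC1 was at -0.01 and RECQL5 at 0.29.

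Of 22 other genes of the Fanconi pathway, 13 fell, 4 rose and 5 were not called in experiment 1 (median -1.27), and 13 fell, 2 rose and 7 were not called in experiment 2 (median -0.42). After GC correction 18 fell and 2 rose in experiment 1. Lower with both were 10 of the 22. The shares of all genes were 37.2%, 26.7%, 45.1% and 15.1% for these counts of lower genes. For the counts that rose before correction they were 36.9% and 26.6%. The core subunit FANCB changed by -1.63 and -1.56, and UBE2T, the ubiquitin-conjugating enzyme for FANCD2, by -1.98 and -1.53. FANCG, the core subunit that binds FANCA, had a large change with siMESH1#1 (-4.06, edgeR adjusted p = 0.00216) and a small one with siMESH1#2 (-0.36, edgeR adjusted p = 0.00347), in a transcript of 58.1% GC. Its siMESH1#1 value after GC correction was -2.05, and it was called lower (edgeR adjusted p = 4.45e-04). FANCL, the ligase subunit itself, was higher with siMESH1#1 (0.57, edgeR adjusted p = 0.0491) and not called with siMESH1#2 (-0.00). The first call was lost in 5 of 6 fits without 1 library, all but that without siMESH1 replicate 3. After GC correction FANCL was at -0.44 with siMESH1#1 and called lower (edgeR adjusted p = 0.00244). FANCM, the anchor of the core complex, was lower with siMESH1#2 (-0.53) and at -0.30, not called, with siMESH1#1, where GC correction put it at -1.35 and called it lower (edgeR adjusted p = 4.77e-04). USP1, which removes ubiquitin from FANCD2, was lower with siMESH1#2 (-0.64, edgeR adjusted p = 7.04e-07) and at -0.02 with siMESH1#1 (edgeR adjusted p = 0.929), or -1.003 and called lower after GC correction. Its cofactor WDR48 was higher with both (0.88 and 0.16), although the siMESH1#2 call was lost in 5 of 6 fits, all but that without siNT replicate 3. After GC correction the siMESH1#1 value of WDR48 was 0.03, and against 0 it was called lower (edgeR adjusted p = 0.0473). C17orf70, the core subunit FAAP100, was called in opposite directions, with 257 to 349 reads per library for siNT and 2 to 23 for siMESH1#1 (-4.27) and a value of 0.16 with siMESH1#2, lost without siMESH1 replicate 1 or 2. Its siMESH1#1 value after GC correction was -0.66, and it was called lower (edgeR adjusted p = 0.0203).

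Among 19 tested genes of checkpoint signalling at damaged DNA, siMESH1#1 lowered 8 and raised 5, whereas siMESH1#2 lowered 11 and raised 2. The shares lower were 42.1% and 57.9%, against 37.2% and 26.7% of all genes, and the first is near the background. Of all genes, 36.9% and 26.6% were higher. The medians were -0.17 and -0.33, and MDC1 was not tested. Only 4 genes were lower with siMESH1#1 when siMESH1 replicate 1 was left out, and 13 with GC correction (45.1% of all genes), which left 1 higher. CLSPN (-3.11 and -2.34) and TIMELESS (-2.84 and -1.21), both of which travel with the replication fork, led the 7 genes lower with both, where 15.1% of all genes were. ATM, the kinase of double-strand breaks, was higher with both (1.31 and 0.65), and at 0.31 with siMESH1#1 after GC correction, where it was not called. CHEK1, the kinase downstream of ATR, was at 0.43 with siMESH1#1 (edgeR adjusted p = 0.0276) and 0.07 with siMESH1#2 (edgeR adjusted p = 0.323). The CHEK1 call was lost in 4 of 6 fits, without siMESH1 replicate 1 or any siNT replicate. After GC correction CHEK1 was at -0.03 with siMESH1#1, and against 0 it was called lower (edgeR adjusted p = 0.00455). RNF8, a ubiquitin ligase at breaks, was called in opposite directions (0.64 and -0.19), the latter lost without siMESH1 replicate 3 and the former at -0.03 after GC correction.

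Non-homologous end joining, which ligates ends with no template and works throughout the cycle, had 7 of 18 genes lower and 6 higher for siMESH1#1 against 3 lower and 5 higher for siMESH1#2. The shares lower, 38.9% and 16.7%, stood against 37.2% and 26.7% of all genes, so the first is near the background. Higher were 36.9% and 26.6% of all genes, so both counts that rose are near the background. The medians, -0.09 and 0.03, were close to those of all genes. After GC correction siMESH1#1 had 12 lower (45.1% of all genes) and none higher, and siMESH1#2 had 5 lower and 4 higher, where the count lower was also 5 without siNT replicate 3. Lower with both were 2 of the 18, against 15.1% of all genes. PRKDC, the catalytic subunit of DNA-PK, changed by -1.69 and -0.27, and C9orf142, the scaffold PAXX, had 176 to 234 reads per library with siNT and 0 to 4 with siMESH1#1 and changed by -0.55 with siMESH1#2. LIG4, the ligase of the pathway, was higher with both (0.77 and 0.20) and so was TP53BP1, which shields ends from resection (0.85 and 0.13). After GC correction LIG4 was at -0.32 with siMESH1#1 and called lower (edgeR adjusted p = 0.0033), and TP53BP1 was at 0.41 and not called. Before correction LIG4 lost its siMESH1#1 call without siNT replicate 3 and its siMESH1#2 call without siMESH1 replicate 3 or siNT replicate 1 or 2. TP53BP1 lost its siMESH1#2 call without any one of the siMESH1 replicates. FAM35A, the shieldin subunit SHLD2 (-0.54 and 0.50), and RIF1, which acts with TP53BP1 (1.02 and -0.32), were among the 4 genes called in opposite directions. The FAM35A call with siMESH1#1 was lost without siMESH1 replicate 1 or any siNT replicate. GC correction put FAM35A at -1.56 with siMESH1#1 and called it lower (edgeR adjusted p = 1.84e-04). RIF1 was at -0.04 with siMESH1#1 after GC correction, and against 0 it was called lower (edgeR adjusted p = 0.0151).

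**Figure D4:**
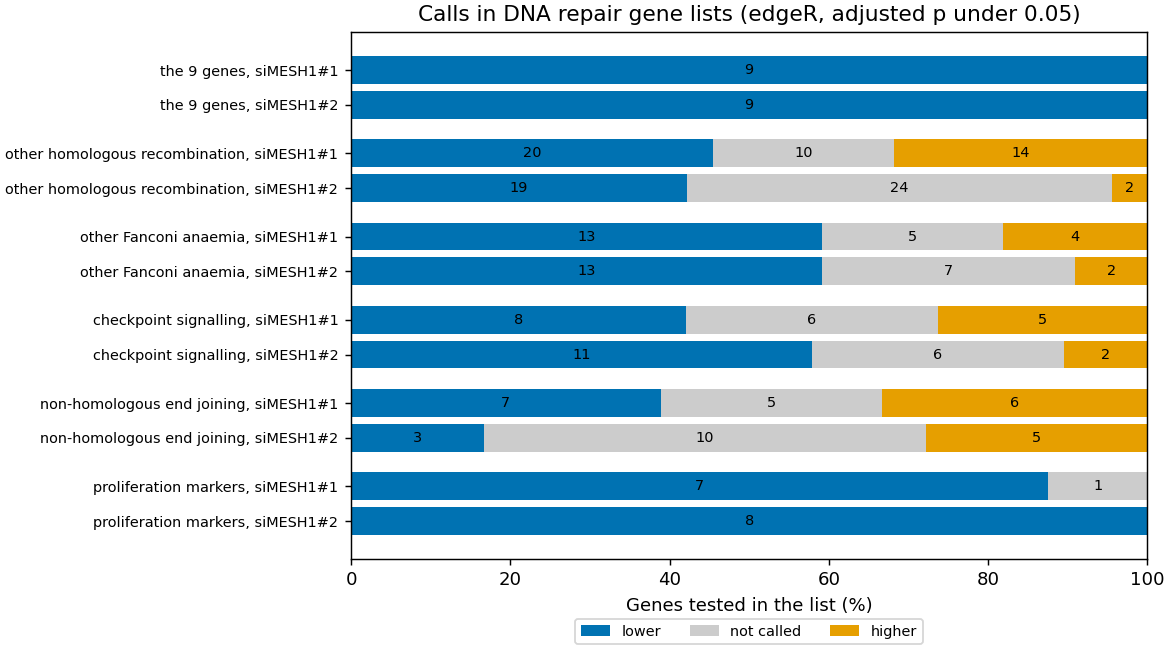
Share of tested genes (%) called lower (blue), not called (grey) or higher (orange) by edgeR in each gene list and for each siRNA, with the number of genes in each bar. All 9 genes described here are lower with both siRNAs, while the non-homologous end joining bars hold 7 of 18 and 3 of 18 lower genes.

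Proliferation markers moved with the 9 genes. Their summed level over 8 markers was 1390 to 1450 CPM with siNT and 567 to 726 CPM with siMESH1#1, and 507 to 514 CPM with siNT and 194 to 197 CPM with siMESH1#2. Of the 8, 7 were lower with siMESH1#1 and 8 with siMESH1#2, and CCNA2 was the one not called with siMESH1#1 (-0.36, named after its value was seen). After GC correction 8 of 8 were lower with siMESH1#1, with a median of -2.42 in place of -1.19, and CCNA2 was at -1.75, neither less the all-gene median. MKI67, a marker of cycling cells, changed by -1.91 and -2.21, and CDK1, the mitotic kinase, by -0.96 and -2.08. CCNE2, a cyclin of S phase entry, changed by -3.08 and -1.92. PCNA, the replication clamp, changed by -0.62 and -0.73, although the first call was lost in 4 of 6 fits, without siMESH1 replicate 1 or any siNT replicate. GC correction put PCNA at -1.20 with siMESH1#1, less the all-gene median (edgeR adjusted p = 7.31e-05). No defining marker was at 0 in any library, since the lowest value of the 8 was 0.624 CPM, of MCM2 (also named after its value was seen). The part of proliferation in the fall of the repair genes was not tested.

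The genes most like the 9 were sought among 9807 genes with a mean siNT level of at least 5 CPM in each experiment. Likeness was the mean absolute difference, over the 6 knockdown libraries, between a gene's log2 change and the median of the 9, which ran from -1.51 to -0.89 in the siMESH1#1 libraries and from -1.59 to -1.41 in the siMESH1#2 libraries. MCM8 (0.117), a helicase subunit of homologous recombination, was nearest, followed by NDC80 (0.132), a kinetochore protein, PRIM1 (0.152), the primase subunit, STARD7 (0.205), a lipid transfer protein, and GNB4 (0.207), a G protein subunit. The log2 fold changes were -1.12 and -1.44 for MCM8, -1.14 and -1.92 for NDC80, -1.35 and -1.46 for PRIM1, -0.96 and -1.59 for STARD7 and -1.31 and -1.20 for GNB4. Of the 9 themselves, BRIP1 (0.0992) and FANCI (0.158) ran closest to the median, FANCA (1.33) and EXO1 (1.16) farthest, and BRCA2 was under the level limit in experiment 2. Likeness was measured on changes without the GC correction. Less the all-gene median, the GC-corrected siMESH1#1 changes were -1.93 for MCM8, -2.12 for NDC80, -2.34 for PRIM1 and -2.31 for GNB4. STARD7 was then at -1.001, above all 9 genes, which ran from -3.54 to -1.47. Likeness with GC correction was not tested.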

How the data were processed

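The authors deposited whole-number counts of reads per gene symbol for 12 libraries, made per the labels from poly(A) RNA with a stranded TruSeq kit. The submitters' processing notes name FastQC, HISAT2, HTSeq, DESeq2 and hg19, without versions, and the strand setting of the counting is not given in the sources used here. Their DESeq2 tables hold mean normalized counts, log2 fold changes, test statistics and p-values, and were not used.

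Rows that name no gene, 38.9% to 49.3% of reads, were left out. Samples were grouped by the siRNA in their labels. Each siRNA was compared with the siNT of its experiment by edgeR 4.0.16 (R 4.3.3, filterByExpr, TMM, quasi-likelihood F test), with Benjamini-Hochberg adjustment over all genes tested and a threshold of 0.05. A fit of all 12 libraries with a term for each experiment gave the average and the difference. Errors are SD of 3 libraries or SE from edgeR. CPM are TMM-scaled, and intervals of counting error are not given. Partner ratios used a prior count of 0.5 and exact permutation tests. GC content, positions and 3'UTRs come from GENCODE 29 on GRCh38, matched by symbol (21257 by name, 1141 by an older symbol, 1312 unmatched). The GC correction gave each gene and library a lowess offset (span 0.3). The code was tested on simulated counts.

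The 9 genes and all gene lists were chosen with earlier results of these data known. The genes named are the 9, HDDC3, 13 fixed partners, 4 proliferation markers, the 5 genes nearest the 9 in profile and, from each pathway list, up to 2 genes called lower with both siRNAs, 2 higher and 2 opposite, with the largest smaller change. Of the genes this rule names, 1 is not reported here. Alternatives were DESeq2 1.42.0, limma 3.58.1 (voom), scaling by library size or relative log expression, filters of at least 10 counts or none, replicate, lane, GC and length terms, 1 model of 4 groups, stricter thresholds (0.01, or fold above 1.41) and leaving out each library.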

Additional observations from a re-analysis of the deposited data

Results flagged for a closer look

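The change differed between the 2 siRNAs in 26 of the named genes, by the test of the difference itself in the edgeR fit of all 12 libraries, where 69.7% of all genes were called. Named genes without a call are left out here, so the count of 26 is not read as an excess over that share. Each siRNA was used in 1 experiment, so siRNA and experiment cannot be told apart. Values, which stand beside an all-gene median of 0.24, are the log2 change with siMESH1#2 minus that with siMESH1#1, with the edgeR adjusted p in parentheses. Among the 9 genes they were BRCA1 -0.71 (0.00112), RAD51AP1 -1.04 (8.37e-04), FANCA 2.54 (9.44e-05) and FANCD2 0.59 (0.00921). HDDC3, the target, had 2.47 (0.0037). Less the all-gene median, its GC-corrected changes were -3.86 with siMESH1#1 and -3.20 with siMESH1#2.

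Among other recombination and Fanconi genes the difference was PALB2 -0.79 (8.23e-04), RAD54L 2.38 (1.70e-04), BLM -1.11 (0.00742), HELQ -1.08 (0.00194), RECQL5 2.06 (0.0163), UBE2T 0.60 (0.0212), FANCG 3.85 (2.11e-04), WDR48 -0.57 (0.00294) and C17orf70 4.59 (4.66e-05). Among checkpoint and end joining genes it was CLSPN 0.92 (4.26e-04), TIMELESS 1.78 (0.0018), RNF8 -0.69 (4.91e-04), C9orf142 6.23 (5.07e-06), PRKDC 1.57 (6.99e-06), TP53BP1 -0.57 (0.00193), FAM35A 1.19 (3.36e-04) and RIF1 -1.19 (0.0024). Among proliferation markers and genes of like profile it was CCNE2 1.31 (0.00122), CDK1 -0.97 (0.00486), NDC80 -0.62 (0.0274) and STARD7 -0.48 (0.00118). Positive values were found for transcripts rich in GC, such as FANCA (55.4%), FANCG (58.1%), C17orf70 (65.65%) and C9orf142 (66.1%). They were also found for transcripts poorer in GC, such as PRKDC (45.3%), CLSPN (43.7%), FAM35A (37.9%) and CCNE2 (36.9%). Negative values among these genes were found only for transcripts with between 36.0% (RAD51AP1) and 49.1% GC (STARD7). The part of GC content in these differences was not tested.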

How the results depend on the processing

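The fall of the 9 genes kept its direction and its call in all 153 values of the alternatives for siMESH1#1 and all 144 for siMESH1#2, with a largest adjusted p of 0.0375 (BRIP1, siMESH1#1). The count of genes whose change differs between the siRNAs was 4, and 8 with GC correction, with GC and length correction and with GC correction and replicate block. Of all 14154 genes, 9866, 9117, 9102 and 8722 were called in these fits, in that order. The Fanconi count for siMESH1#2 was 13, and 7 in a single model of 4 groups. That single model called 1444 of all 14154 genes lower with siMESH1#2, against 3622 of 13568 in the main fit, so calls fell for all genes. The checkpoint count for siMESH1#1 was 8, and 13 with GC or GC and length correction, 14 with GC correction and replicate block, 4 at an adjusted p under 0.01, and 4 to 8 leaving out 1 library. For siMESH1#2 it was 11, and 5 in the single model and 6 with the added fold threshold. The end joining count for siMESH1#1 was 7, and 11 with GC and length correction, 12 with GC correction, 13 with GC correction and replicate block and 3 with at least 10 counts in every library. For siMESH1#2 it was 3, and 5 with GC or GC and length correction, 0 in the single model, 1 with the added fold threshold and 3 to 5 leaving out 1 library. Of all genes, 4981 of 13395 were lower with siMESH1#1 in the main fit. The number was 6039 with GC correction, 6092 with GC and length correction and 5827 with GC correction and replicate block. It was 4030 of 11252 with at least 10 counts in every library. With siMESH1#2 it was 3991 of 13568 with GC correction and 3980 with GC and length correction. All-gene numbers for stricter thresholds and for leaving out 1 library are not given. The cause was not tested for any of these changes in count.

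Signs against 0 changed as follows, given for GC and length correction, GC correction, and GC correction with replicate block. GC correction also moved the median of all genes to -0.51 with siMESH1#1 and to 0.74 for the difference, so these signs include a shift of all genes. Less the median of -0.51, ATM (0.31), TP53BP1 (0.41) and WDR48 (0.03) stayed above 0, and PALB2, UIMC1, CHEK1, RNF8 and RIF1 lay between -0.04 and -0.01. Differences between siRNAs became 0.77, 0.71 and 0.73 for BRCA1, 0.55, 0.54 and 0.57 for RAD51AP1, 1.33, 1.24 and 1.27 for FANCI and 1.40, 1.32 and 1.32 for BRIP1. Changes with siMESH1#1 became -0.60, -0.53 and -0.54 for PALB2, -0.99, -0.97 and -0.98 for RBBP8, -0.87, -0.95 and -0.95 for FANCL, -0.45, -0.54 and -0.54 for CHEK1, -0.53, -0.52 and -0.55 for UIMC1, -0.52, -0.48 and -0.50 for WDR48, -0.34, -0.20 and -0.21 for ATM, -0.65, -0.54 and -0.59 for RNF8, -0.92, -0.83 and -0.84 for LIG4, -0.22, -0.095 and -0.15 for TP53BP1 and -0.70, -0.55 and -0.56 for RIF1. HELQ was at -0.034 with GC and length correction and -0.0024 with GC correction and replicate block. RBBP8 with siMESH1#2, not called, became -0.051, -0.067 and -0.067. The difference of FANCI was 0.0021 with a lane covariate and 0.043 with library size scaling. That of BRCA2 was -0.11 with DESeq2, -0.12 with relative log expression scaling, -0.020 with the replicate block and -0.055 with voom. FANCL with siMESH1#2 was 0.0043 without a filter. Leaving out 1 library gave -0.18 to 0.023 for the difference of FANCI, -0.57 to 0.010 for BRIP1 and -0.19 to 0.30 for BRCA2, and changes of -0.033 to 0.094 for RBBP8 and -0.087 to 0.11 for FANCL with siMESH1#2 and -0.27 to 0.15 for USP1 with siMESH1#1. The difference of EXO1 was 0.47 and called without siMESH1#1 replicate 2 (edgeR adjusted p = 0.0377). Scaling by library size put the median of all genes at -0.31 with siMESH1#1.

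Deviations from group means were correlated between siNT and siMESH1 libraries. Pairs with the same replicate number had -0.0475, 0.224 and 0.128 in experiment 1 and -0.063, 0.0415 and -0.0755 in experiment 2. Pairs with different numbers had -0.264 to 0.167 and -0.0869 to 0.144. With 3 libraries per group these values cannot settle whether replicate numbers pair the libraries. With the replicate block 9 of the 9 genes were lower with each siRNA and 4 differed between siRNAs, and the pathway counts were 20 and 19, 13 and 13, 7 and 11, and 7 and 3. Calls of FANCL and UIMC1 with siMESH1#1 and of RECQL5 and WDR48 with siMESH1#2 were lost with it. Depth limits BRCA2 and RAD51AP1, with 34 to 73 and 42 to 53 reads in the siMESH1#2 libraries.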
